A study of Mus musculus with 14 samples.

Results

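YAP knockdown was compared with TAZ knockdown in mouse fibroblasts undergoing cardiac reprogramming, gene by gene. The members were the 19518 of 22206 array features that carry a single gene symbol and have values in all 4 arrays of the comparison, and they stand for 19486 symbols. Mouse embryonic fibroblasts on stiff 126 kPa hydrogel received retroviruses for Gata4, Hand2, Mef2c and Tbx5 (GHMT), which drive fibroblasts toward cardiomyocyte-like cells, together with a lentivirus for a short hairpin RNA. The hairpin targeted Yap1 (GHMT/shYAP, 2 arrays), Wwtr1, the gene of TAZ (GHMT/shTAZ, 2 arrays), or nothing (GHMT/Scramble, 2 arrays), and RNA was taken after 2 weeks. The labels name no sorting step before RNA extraction and do not say which hairpin against each gene the arrays used, so effects of a hairpin outside its target cannot be told apart from effects of the knockdown. Beside these arrays stand those of GHMT fibroblasts on soft 8 kPa hydrogel with the constitutively active mutants YAP-5SA (2 arrays) or TAZ-4SA (2 arrays). The replicates were described as independent biological samples.

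YAP and TAZ are paralogous transcriptional coactivators. When cells sit on a stiff matrix or spread widely, both enter the nucleus and bind the TEAD transcription factors, which recognise the DNA motif GGAATG. On soft matrix, or when the Hippo kinases LATS1 and LATS2 phosphorylate them, they stay in the cytoplasm and are degraded. Well-known targets are Ccn1, Ccn2 and Ankrd1. Which genes respond to one coactivator rather than the other is the question this comparison addresses.

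A deposited value is a log2 ratio, and the 2 scramble arrays average to 0 for each feature, and it is read here as the ratio of an array to the scramble mean. A value of 1 is a doubling relative to scramble. The difference given for a gene is the shYAP mean minus the shTAZ mean, in which the scramble reference cancels. The SE and p come from limma fitted to the 6 shRNA and scramble arrays over 22122 features, with 3 residual degrees of freedom. The spread of the scramble arrays therefore enters the SE, and it was wider than that of the others. Over genes, the SD of replicate 1 minus replicate 2 was 0.405 for scramble, against 0.236 for shYAP and 0.208 for shTAZ. A gene passed at a Benjamini-Hochberg adjusted p under 0.05. With 2 arrays against 2, an exact permutation test of a single gene cannot go below p = 0.333 (two-sided), so p-values rest on the spread shared between genes.

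Each target had lower values with its own hairpin, though neither difference passed the threshold. The article reports lower YAP and TAZ with shYAP and shTAZ from qRT-PCR and western blotting. It also reports that another hairpin against each gene increased reprogramming. Yap1 stood at -0.89 and -0.88 in the shYAP arrays, against 0.20 and 0.06 in the shTAZ arrays. Its difference was -1.01 (SE 0.12, n = 2 arrays per group), or 0.496-fold, and the shYAP and shTAZ arrays did not overlap. Its adjusted p was 0.114 from limma. Wwtr1 stood at 0.10 and 0.10 in the shYAP arrays, against -0.36 and -0.31 in the shTAZ arrays. Its difference was 0.44 (SE 0.17, adjusted p = 0.606 from limma), and the 2 scramble arrays, at -0.25 and 0.25, were farther apart than the shYAP and shTAZ means. On these arrays Wwtr1 was thus less far below the scramble mean with shTAZ than Yap1 was with shYAP. A difference in the depth of knockdown and a difference between the coactivators cannot be told apart here. The 4 reprogramming factors were measured too, and of these Gata4 was 0.63 and 0.73 with shYAP, against 0.20 and 0.20 with shTAZ (difference 0.48, SE 0.11, adjusted p = 0.39 from limma). The differences of the others were 0.31 for Mef2c, -0.14 for Hand2 and -0.20 for Tbx5, each with an adjusted p of 0.55 or more from limma.

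Few genes passed the threshold between the knockdowns. The difference had a median of 0.01 and an SD of 0.241 over genes, and 96.4% of genes differed by less than 0.5. Past the threshold were 10 features (0.0452% of those tested), 7 higher (0.0316%) and 3 lower (0.0136%) with shYAP. Of the genes with a symbol, 4 were higher (0.0205%) and 3 lower (0.0154%), and the 3 other higher features carry none. The 3 without a symbol differed by 1.84 to 2.08, and by feature number they stand next to Mup genes. Before adjustment, 788 genes had p under 0.05 on the higher side (4.04%) and 842 on the lower side (4.31%). At least 2-fold higher with shYAP were 86 genes (0.441%), and at least 2-fold lower were 26 (0.133%). Both shYAP arrays lay above both shTAZ arrays in 4663 genes (23.9%) and below both in 4080 (20.9%).

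**Figure D1:**
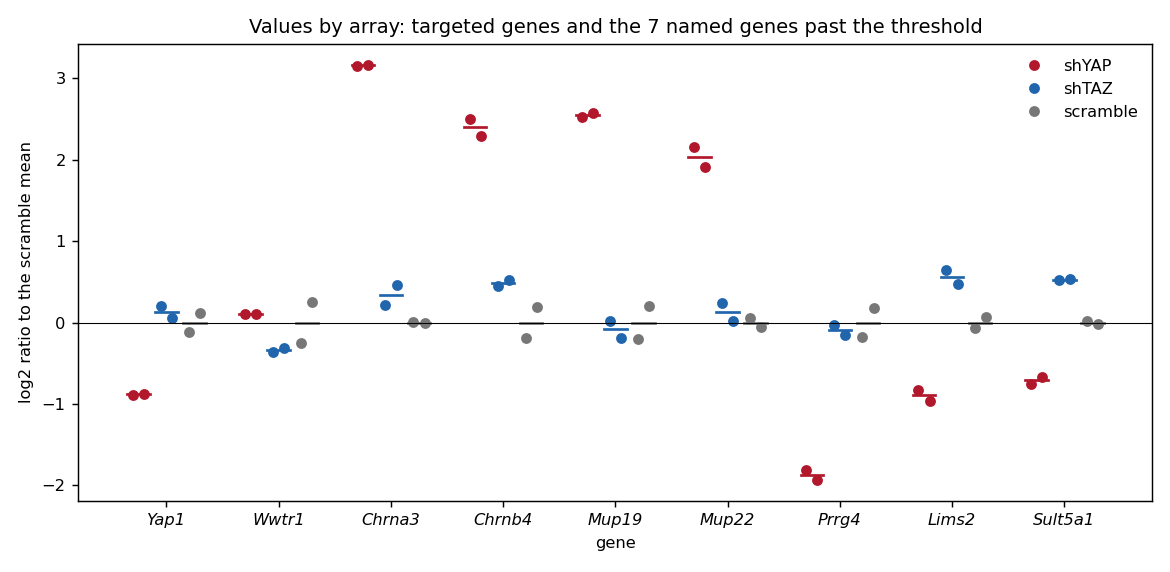
Log2 ratio to the scramble mean (vertical axis) of Yap1, Wwtr1 and the 7 named genes past the threshold, with 1 point per array and a bar at the mean of 2 arrays, for shYAP, shTAZ and scramble. Chrna3, Chrnb4, Mup19 and Mup22 lie near 2 to 3 in the shYAP arrays and near 0 in the others, and Prrg4, Lims2 and Sult5a1 lie below 0 in the shYAP arrays.

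Chrna3 and Chrnb4, which encode the α3 and β4 subunits that together form the nicotinic acetylcholine receptor of autonomic ganglia, rose with shYAP. Chrna3 was 3.16 and 3.17 in the shYAP arrays, against 0.22 and 0.46 in the shTAZ arrays and 0.01 and -0.01 in the scramble arrays. It was 7.06-fold higher with shYAP (difference 2.82, SE 0.12, adjusted p = 0.00396 from limma). Chrnb4 was 2.498 and 2.298 in the shYAP arrays, against 0.45 and 0.53 in the shTAZ arrays, a 3.76-fold difference (1.91, SE 0.16, adjusted p = 0.0276 from limma). Both genes stood out in the shYAP arrays only, while their shTAZ values lay within 0.53 of the scramble mean. They are neighbours on chromosome 9, in a cluster that also holds Chrna5, the gene of an accessory subunit. Chrna5 was -0.11 and 0.42 with shYAP, against -0.56 and -0.49 with shTAZ (difference 0.68, SE 0.20, adjusted p = 0.492 from limma). The 4 measured genes beyond Chrna5 and the 4 beyond Chrnb4 differed by -0.12 to 0.12. Of the other nicotinic subunit genes on a list of 16, none passed limma. At p under 0.05 before adjustment, 2 more were higher and 1 lower, beside 4.04% and 4.31% of all genes. The muscle β1 subunit gene Chrnb1 stood lowest, with a difference of -0.69 (adjusted p = 0.541 from limma).

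The promoter windows of these neighbours are shown because the genes moved together. Each covers 300 bases around the start of the gene, most of them upstream (RefSeq, GRCm38.p6), on the minus strand, for Chrna3 at chr9:55026513-55026812 and for Chrnb4 at chr9:55048495-55048794. Neither holds the TEAD motif GGAATG or its reverse complement CATTCC, which stood in 14.7% of all 32851 such windows.
Chrna3: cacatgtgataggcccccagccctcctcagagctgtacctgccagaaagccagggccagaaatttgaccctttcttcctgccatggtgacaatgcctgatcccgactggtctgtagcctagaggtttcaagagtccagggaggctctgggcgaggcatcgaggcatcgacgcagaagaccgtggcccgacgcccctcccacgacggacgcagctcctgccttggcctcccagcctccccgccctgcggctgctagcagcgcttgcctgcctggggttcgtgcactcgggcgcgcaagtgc
Chrnb4: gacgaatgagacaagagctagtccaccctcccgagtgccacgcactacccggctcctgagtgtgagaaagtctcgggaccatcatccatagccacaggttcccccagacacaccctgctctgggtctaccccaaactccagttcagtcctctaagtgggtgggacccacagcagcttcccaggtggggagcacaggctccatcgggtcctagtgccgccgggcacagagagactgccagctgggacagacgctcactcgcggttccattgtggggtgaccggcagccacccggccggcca

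Mup19 and Mup22, members of the major urinary protein family of lipocalins, which carry pheromones and are best known from mouse liver, also rose with shYAP. Mup19 was 2.52 and 2.58 in the shYAP arrays, against 0.02 and -0.19 in the shTAZ arrays, 6.21-fold higher (difference 2.63, SE 0.16, adjusted p = 0.0226 from limma). Mup22 was 2.16 and 1.91 in the shYAP arrays, against 0.24 and 0.02 in the shTAZ arrays, 3.75-fold higher (difference 1.91, SE 0.14, adjusted p = 0.0276 from limma). The groups did not overlap in either gene. Of the other family members measured, Mup9 differed by 1.83 (adjusted p = 0.211), Mup2 by 1.60 (adjusted p = 0.135) and Mup5 by 0.88 (adjusted p = 0.541, all from limma). Mup6, Mup21 and Mup3 differed by 0.34 to 0.52 and Mup20 by -0.08, so the family did not move as 1 block. By feature number, the 3 features past the threshold without a symbol stand next to Mup19, Mup2 and Mup9. They were 1.59 to 2.02 in the shYAP arrays and -0.42 to -0.03 in the shTAZ arrays. Whether they measure Mup RNA was not tested. Mup genes are near-identical copies and a probe for one can bind RNA of another, so the value of a single member is uncertain. The windows of Mup19 (chr4:61782175-61782474) and Mup2 (chr4:60139807-60140106), both on the minus strand of GRCm38.p6 (RefSeq), are shown for this likeness. They are identical at 291 of 306 aligned positions (95.1%), and each holds 1 CATTCC, in capitals.
Mup19: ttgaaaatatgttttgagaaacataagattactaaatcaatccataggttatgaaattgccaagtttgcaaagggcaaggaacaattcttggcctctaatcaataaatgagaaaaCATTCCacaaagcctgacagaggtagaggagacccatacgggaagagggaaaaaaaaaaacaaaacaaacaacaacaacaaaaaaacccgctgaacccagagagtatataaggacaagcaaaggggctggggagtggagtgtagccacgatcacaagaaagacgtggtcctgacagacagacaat
Mup2: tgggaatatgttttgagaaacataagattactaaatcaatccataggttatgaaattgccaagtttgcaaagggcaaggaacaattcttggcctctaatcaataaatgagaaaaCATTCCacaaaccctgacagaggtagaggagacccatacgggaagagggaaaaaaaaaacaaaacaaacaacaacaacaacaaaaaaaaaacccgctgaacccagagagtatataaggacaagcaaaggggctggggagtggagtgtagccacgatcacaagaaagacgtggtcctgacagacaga

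**Figure D2:**
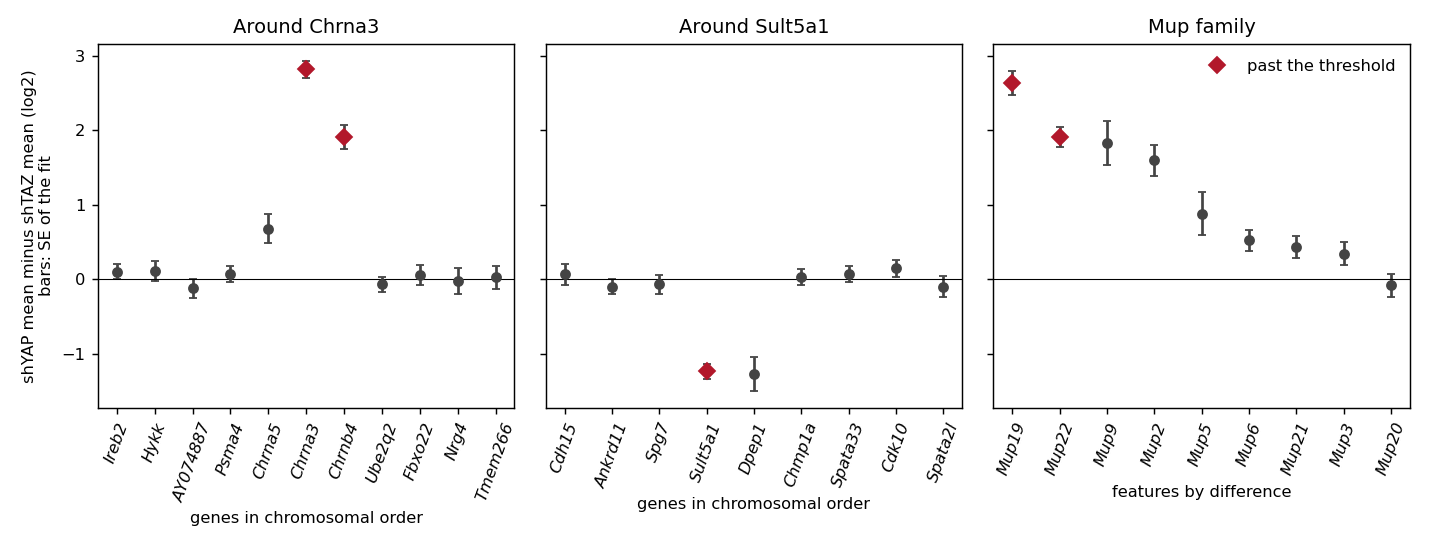
Difference between the shYAP and shTAZ means in log2 (vertical axis, bars are the SE of the fit) for measured genes in chromosomal order around Chrna3 and around Sult5a1, and for Mup family features in order of their difference; diamonds passed the threshold. Only Chrna5 beside Chrna3 and Chrnb4, and only Dpep1 beside Sult5a1, stand more than 0.5 from 0 in the first 2 panels.

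Prrg4, Lims2 and Sult5a1 fell with shYAP relative to shTAZ. Prrg4, which encodes a transmembrane protein with a Gla domain, was -1.81 and -1.93 in the shYAP arrays, against -0.02 and -0.15 in the shTAZ arrays. Its fold of shYAP over shTAZ was 0.289 (difference -1.79, SE 0.15, adjusted p = 0.0276 from limma). The shTAZ values of Prrg4 lay between its scramble values of -0.18 and 0.18, and the shYAP values far below them. Lims2 encodes PINCH2, an adaptor of focal adhesions that binds the integrin-linked kinase. It was -0.83 and -0.96 in the shYAP arrays, against 0.65 and 0.47 in the shTAZ arrays (difference -1.45, SE 0.12, adjusted p = 0.0276 from limma). Sult5a1, a cytosolic sulfotransferase family gene, was -0.75 and -0.67 in the shYAP arrays, against 0.52 and 0.53 in the shTAZ arrays (difference -1.24, SE 0.10, adjusted p = 0.0276 from limma). Lims2 and Sult5a1 thus lay below the scramble mean with shYAP and above it with shTAZ. Dpep1, which encodes a dipeptidase and is the next gene to Sult5a1, was 0.32 and -0.19 with shYAP, against 1.09 and 1.57 with shTAZ (difference -1.27, SE 0.23, adjusted p = 0.264 from limma).

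The windows of Sult5a1 (chr8:123158231-123158530) and Prrg4 (chr2:104849801-104850100), both on the minus strand of GRCm38.p6 (RefSeq), are shown as those of genes that fell. Sult5a1 holds 1 CATTCC, in capitals, and Prrg4 holds neither orientation of the motif. Among genes with a window, 5 of 15 that were at least 2-fold lower and 6 of 65 that were at least 2-fold higher held the motif, beside 15.3% of the 15683 measured genes with one.
Sult5a1: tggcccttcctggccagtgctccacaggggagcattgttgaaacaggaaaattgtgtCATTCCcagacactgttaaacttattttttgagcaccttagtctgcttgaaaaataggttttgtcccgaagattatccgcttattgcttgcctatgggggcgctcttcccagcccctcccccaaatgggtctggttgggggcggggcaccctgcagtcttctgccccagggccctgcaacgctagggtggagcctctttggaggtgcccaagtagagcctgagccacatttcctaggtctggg
Prrg4: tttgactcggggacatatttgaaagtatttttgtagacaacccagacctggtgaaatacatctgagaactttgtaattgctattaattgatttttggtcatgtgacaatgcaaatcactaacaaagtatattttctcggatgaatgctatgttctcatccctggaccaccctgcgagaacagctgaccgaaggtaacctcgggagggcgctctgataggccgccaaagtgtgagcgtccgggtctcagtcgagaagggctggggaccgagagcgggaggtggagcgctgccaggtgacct

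All 7 named calls shared a limit. Without any 1 of the 4 shRNA arrays, 0 features passed limma (427 to 721 higher and 451 to 664 lower before adjustment, at p under 0.05), and Chrna3 then had an adjusted p of 0.0574 to 0.0951. With quantile normalization 0 passed as well (245 higher and 402 lower at p under 0.05 before adjustment). That setting gives every array the same distribution of ratios. As deposited, the SD of the ratios was 0.203 in each scramble array and 0.406 to 0.464 in the shRNA arrays. The part of this rescaling in the lost calls, and in other values given with quantile normalization, was not tested.

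Just outside the threshold were Slc24a2, a potassium-dependent sodium-calcium exchanger gene (difference 1.03, adjusted p = 0.0575 from limma), and Tnni1, the slow skeletal troponin I gene that is also used by the fetal heart. Tnni1 was 1.96 and 1.97 in the shYAP arrays, against 0.66 and 0.63 in the shTAZ arrays (difference 1.32, SE 0.13, adjusted p = 0.0589 from limma). Both knockdowns lay above scramble, at -0.15 and 0.15, with shYAP farther above. Tspan18, a tetraspanin gene, was -0.51 and -0.65 with shYAP, against 0.43 and 0.55 with shTAZ (difference -1.07, adjusted p = 0.0757 from limma).

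Of the 86 genes at least 2-fold higher with shYAP, 21 were on a list of macrophage and leukocyte markers. That list was chosen with earlier results of these data known. Of the 86, 58 were also at least 2-fold apart between the 2 scramble arrays, and the median of these 58 was -2.87 with shYAP and -4.49 with shTAZ. All 33 measured markers of the list had a difference above 0, from 0.06 to 4.19 with a median of 1.54, and in 29 (87.9%) both shYAP arrays lay above both shTAZ arrays, beside 23.9% of all genes. The median was 0.21 with quantile normalization and 0.95 without shYAP replicate 1. None passed limma (before adjustment, 11 had p under 0.05 on the higher side and 0 on the lower, beside 4.04% and 4.31% of all genes). Array by array, the marker median was -2.24 and -3.72 with shYAP, -4.68 and -4.62 with shTAZ, and 1.09 and -1.09 with scramble. The marker median thus lay below the scramble mean in all 4 knockdown arrays and lower with shTAZ than with shYAP, and both group means were below 0 in 31 of 33 markers. The shYAP arrays were uneven, with replicate 1 above replicate 2 in 32 of 33 markers, as were the scramble arrays, with replicate 1 above replicate 2 in 33. Lyz2, the macrophage lysozyme gene, was -1.95 and -3.33 with shYAP, against -7.48 and -6.18 with shTAZ (difference 4.19, SE 0.61, adjusted p = 0.158 from limma). Mrc1, the mannose receptor gene, was -1.28 and -4.83 with shYAP, against -6.80 and -6.68 with shTAZ (difference 3.68, SE 1.14, adjusted p = 0.515 from limma). Spi1, the gene of the myeloid transcription factor PU.1, was -2.04 and -3.99 with shYAP, against -6.562 and -5.995 with shTAZ (difference 3.26, SE 0.76, adjusted p = 0.392 from limma). In whole cultures, fewer cells of a type and less RNA per cell cannot be told apart. As the values are ratios, they do not show how much of the RNA these transcripts made up. The part of macrophage RNA in the differences of other genes was not tested.

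**Figure D3:**
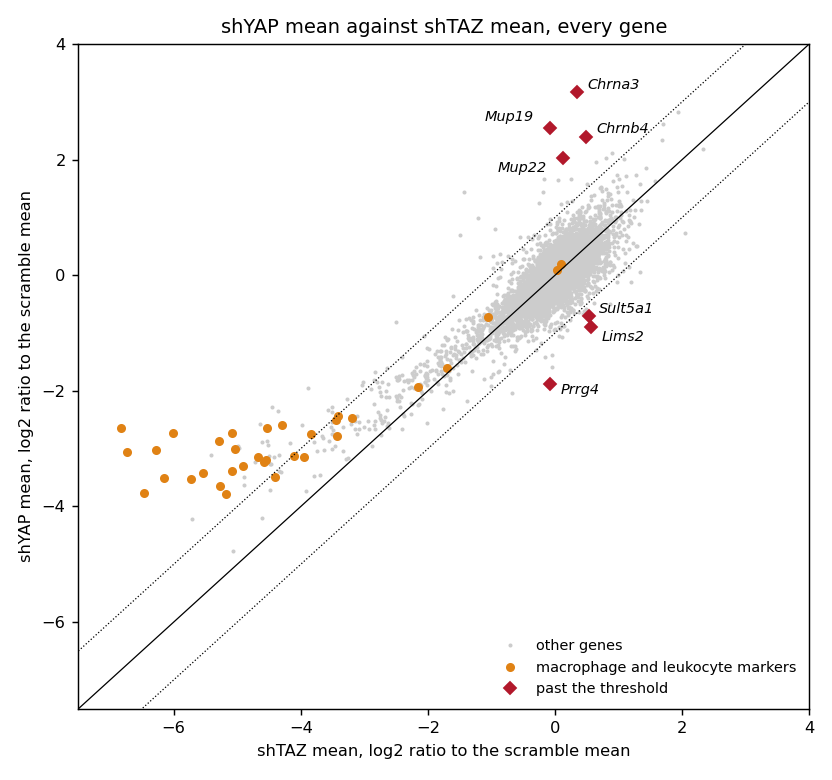
Mean log2 ratio to scramble of every gene with shTAZ (horizontal) and with shYAP (vertical); the solid line marks equal means, and the dotted lines mark a 2-fold difference. Most genes lie along the solid line, the 33 macrophage and leukocyte markers (orange) lie on or above it with most far below 0 on both axes, and the 7 named genes past the threshold (diamonds) lie near 0 for shTAZ and off the line.

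The remaining 28 genes at least 2-fold higher with shYAP were less than 2-fold apart between the scramble arrays, and in 26 of them the shYAP mean was above 0. Lyz2 and Mmp12 were not among these 26. Mmp12 was -3.82 and -2.15 with shYAP, against -4.81 and -5.13 with shTAZ (difference 1.99, adjusted p = 0.486 from limma). Some of the 28 were just under 2-fold apart between the scramble arrays, among them Lyz2 (0.494 and -0.494), Mmp12 (0.498 and -0.498) and Dpt (-0.488 and 0.488). Beyond Lyz2, Mmp12 and the nicotinic receptor and Mup genes, the 28 included Fabp4 and Adipoq, genes of the adipocyte fatty acid-binding protein and of adiponectin. Fabp4 was 0.25 and 1.15 with shYAP, against -1.43 and -1.54 with shTAZ (difference 2.19, SE 0.27, adjusted p = 0.117 from limma). Adipoq was 1.002 and 2.324 with shYAP, against 0.26 and 0.23 with shTAZ (difference 1.42, adjusted p = 0.48 from limma). Pparg, the master regulator of fat cells, did not share their sign: its difference was -0.70. Connective tissue genes were also among the 28: Dpt, the dermatopontin gene, was 1.61 and 1.27 with shYAP, against 0.12 and -0.48 with shTAZ (difference 1.62, adjusted p = 0.363 from limma), and Fbn2, the fibrillin-2 gene, differed by 1.13. Crabp1, which encodes a cellular retinoic acid-binding protein, was 0.04 and 0.59 with shYAP, against -0.97 and -1.39 with shTAZ (difference 1.499, adjusted p = 0.211 from limma). Txnip and Arrdc4, paralogous arrestin-like genes that respond to glucose and restrain its uptake, differed by 1.10 and 1.32, with the shTAZ arrays uneven at -0.39 and -1.58 for Txnip. Lyve1 owed its difference of 1.504 to 1 array: it was 2.68 and -0.17 with shYAP, against -0.30 and -0.19 with shTAZ.

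None of the 26 genes at least 2-fold lower with shYAP was 2-fold apart between the scramble arrays, and in 18 of them the shYAP mean was below 0 and the shTAZ mean above 0. Beside Yap1 and the 3 genes past the threshold, they included Ppp1r14a, which encodes the myosin phosphatase inhibitor CPI-17 of smooth muscle. It was -0.51 and -0.84 with shYAP, against 0.42 and 0.47 with shTAZ (difference -1.12, SE 0.14, adjusted p = 0.114 from limma). Cfi, the gene of complement factor I, was 0.01 and -0.23 with shYAP, against 1.12 and 1.27 with shTAZ, and C2, another complement gene, was -0.04 and -0.20 with shYAP, against 0.86 and 1.10 with shTAZ (differences -1.31 and -1.09, adjusted p = 0.104 from limma for each). Complement genes did not share a sign, since C1qa, C1qb and C1qc had differences of 1.4004, 2.03 and 2.12 (adjusted p = 0.728, 0.551 and 0.623 from limma). These C1q genes were not raised above scramble, and like the macrophage marker median they lay lower with shTAZ. C1qa was -3.42 and -4.13 with shYAP, against -5.04 and -5.32 with shTAZ. C1qb was -2.24 and -3.75, against -4.97 and -5.09, and C1qc was -2.699 and -4.13, against -5.48 and -5.59. Their scramble arrays were apart too, at 1.35 and -1.35, 0.94 and -0.94, and 1.42 and -1.42. Asah2, the neutral ceramidase gene, was -1.02 and -0.85 with shYAP, against 0.15 and 0.00 with shTAZ (difference -1.01, adjusted p = 0.104 from limma). Grem1, which encodes a secreted antagonist of bone morphogenetic proteins, was -0.65 and -0.59 with shYAP, against 0.30 and 0.65 with shTAZ (difference -1.09, adjusted p = 0.135 from limma), and Tmem88, a Wnt inhibitor in cardiac development, differed by -1.11.

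The Hippo pathway and the YAP/TAZ targets leaned slightly to the lower side with shYAP in sign and median. Of 28 measured Hippo pathway genes and TEAD partners, 19 had a difference below 0 (median -0.13), and of 29 YAP/TAZ target genes 21 did (median -0.11, beside 0.01 over all genes). The Hippo median was -0.07 without shYAP replicate 1 and -0.08 without shTAZ replicate 2, and the target median was -0.05 without shTAZ replicate 1. None of either list passed limma. At p under 0.05 before adjustment, 3 Hippo genes were lower and 4 higher, and 6 targets were lower and 1 higher. Over all genes the shares were 4.31% lower and 4.04% higher. The Hippo counts include Yap1 on the lower side and Wwtr1 on the higher side. These are the genes the hairpins target, and they are the lowest and highest of that list. Ankrd1, which encodes a cardiac and stretch-responsive ankyrin repeat protein, was -0.73 and -0.97 with shYAP, against -0.05 and -0.09 with shTAZ (difference -0.78, SE 0.12, adjusted p = 0.184 from limma). Edn1, the endothelin-1 gene, was -0.10 and -0.08 with shYAP, against 0.65 and 0.66 with shTAZ (difference -0.74, SE 0.11, adjusted p = 0.158 from limma). Ccn2, the connective tissue growth factor gene, was -0.64 and -0.69 with shYAP, against -0.14 and -0.41 with shTAZ (difference -0.39, adjusted p = 0.551 from limma). In these 3 genes the shYAP arrays lay below both shTAZ arrays. Ccn1 differed by -0.31, with -0.25 and -0.42 in the shYAP arrays, against 0.10 and -0.16 in the shTAZ arrays. Igfbp3, an insulin-like growth factor-binding protein gene on the same list, went the other way: it was 0.51 and 0.74 with shYAP, against -0.07 and -0.66 with shTAZ (difference 0.99). The kinase genes Lats1 and Lats2 differed by -0.29 and -0.28, and among the TEAD genes Tead4 differed by -0.42 and Tead2 by 0.41.

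Smooth muscle and myofibroblast genes, which build the contractile apparatus of these cells, had differences of 1 sign. Their list was chosen with earlier results of these data known, and Des is also on the sarcomere list. All 17 measured had a difference below 0, from -0.83 to -0.05 with a median of -0.31, and in 15 (88.2%) both shYAP arrays lay below both shTAZ arrays, beside 20.9% of all genes. None passed limma, and 7 were lower and 0 higher at p under 0.05 before adjustment, beside 4.31% and 4.04% of all genes. The array medians were -0.04 and -0.02 with shYAP, 0.30 and 0.41 with shTAZ, and -0.16 and 0.16 with scramble. Des, the gene of the intermediate filament desmin, was -0.67 and -0.98 with shYAP, against 0.02 and -0.02 with shTAZ (difference -0.83, SE 0.14, adjusted p = 0.217 from limma). Tagln, which encodes the actin-binding protein transgelin, was -0.29 and -0.31 with shYAP, against 0.25 and 0.18 with shTAZ (difference -0.51, SE 0.10, adjusted p = 0.305 from limma). Itga11, a collagen receptor gene of myofibroblasts, differed by -0.67, Mylk, the myosin light chain kinase gene, by -0.45 and Cnn1, the calponin gene, by -0.36. Acta2, the gene of smooth muscle actin, differed by -0.19. Among 32 TGF-β family genes, which include inducers of this program, 24 lay below 0 (median -0.14), with Grem1, Fstl3 (-0.93), Bmp6 (-0.65) and the inhibitory Smad genes Smad7 (-0.59) and Smad6 (-0.57) at the low end. None of these passed limma (7 lower and 2 higher at p under 0.05 before adjustment, beside 4.31% and 4.04% of all genes).

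Sarcomere genes lay mostly on the other side. Of 29 measured, 22 had a difference above 0 (median 0.23), and 17 (58.6%) had both shYAP arrays above both shTAZ arrays, beside 23.9% of all genes. None passed limma, with 13 higher and 3 lower at p under 0.05 before adjustment, beside 4.04% and 4.31% of all genes. The array medians were 0.72 and 0.76 with shYAP, 0.41 and 0.38 with shTAZ, and -0.10 and 0.10 with scramble, so both knockdowns lay above scramble. Myh6, the gene of the α myosin heavy chain, was 1.61 and 1.49 with shYAP, against 1.03 and 1.09 with shTAZ (difference 0.49, SE 0.14, adjusted p = 0.476 from limma). Ttn, the gene of the spring protein titin, was 1.54 and 1.52 with shYAP, against 0.78 and 0.68 with shTAZ (difference 0.80, SE 0.20, adjusted p = 0.43 from limma). Actn2, the gene of the Z-disc α-actinin, was 1.49 and 1.49 with shYAP, against 0.86 and 0.74 with shTAZ (difference 0.69, SE 0.10, adjusted p = 0.162 from limma). Mybpc3, the gene of cardiac myosin-binding protein C, differed by 0.75 (adjusted p = 0.219 from limma) and Myl4, an atrial light chain gene, by 0.68. Not every marker took part: Tnnt2, the cardiac troponin T gene, was 0.50 and 0.53 with shYAP, against 0.48 and 0.46 with shTAZ (difference 0.04, and -0.02 with quantile normalization). Des and Cryab, a desmin chaperone gene, had the lowest differences of the list, at -0.83 and -0.43. The macrophage marker median of -2.24 and -3.72 with shYAP, against -4.68 and -4.62 with shTAZ, stands beside these values, and its part in them was not tested.

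Other muscle genes gave a mixed picture. Pln, the phospholamban gene, was 2.86 and 2.79 with shYAP, against 1.73 and 2.14 with shTAZ (difference 0.89, SE 0.29, adjusted p = 0.541 from limma). Slc8a1, the gene of the cardiac sodium-calcium exchanger, was 0.91 and 0.89 with shYAP, against 0.33 and 0.21 with shTAZ (difference 0.63, SE 0.10, adjusted p = 0.217 from limma). Casq2, the gene of the calcium store protein calsequestrin, was -0.40 and -0.50 with shYAP, against 0.37 and 0.34 with shTAZ (difference -0.81, SE 0.14, adjusted p = 0.246 from limma). The 22 measured calcium handling genes as a list had a median of 0.05, and of -0.02 with quantile normalization. Nppa, the gene of atrial natriuretic peptide, was -2.34 and -1.49 with shYAP, against -1.02 and -1.01 with shTAZ (difference -0.90, SE 0.26, adjusted p = 0.492 from limma). Of 19 skeletal muscle genes, 16 had a difference above 0 (median 0.19, and 0.11 without shTAZ replicate 2), led by Tnnt3, the fast troponin T gene, which was 0.66 and 0.66 with shYAP, against -0.14 and -0.72 with shTAZ (difference 1.09). The regulators Myod1 and Myog differed by 0.12 each. The endogenous and delivered cardiac transcription factors had a median of 0.02, where Myocd, the myocardin gene, had the highest difference, 0.57.

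Metabolic genes differed little but with an even sign in several lists, which were chosen with earlier results of these data known. All 17 measured cholesterol synthesis genes had a difference below 0 (range -0.80 to -0.11, median -0.22), and in 16 (94.1%) both shYAP arrays lay below both shTAZ arrays, beside 20.9% of all genes. None passed limma, and 8 were lower and 0 higher at p under 0.05 before adjustment, beside 4.31% and 4.04% of all genes. Idi1, an isomerase gene of the mevalonate pathway, was -0.21 and -0.23 with shYAP, against 0.60 and 0.56 with shTAZ (difference -0.80, SE 0.11, adjusted p = 0.135 from limma). Insig1, Dhcr7 and Msmo1 followed, with -0.40, -0.39 and -0.37. Of 26 glycolysis and hypoxia genes, 22 lay below 0 (median -0.22) and none passed limma. At p under 0.05 before adjustment, 6 were lower and 1 higher, beside 4.31% and 4.04% of all genes. Hk2, the hexokinase 2 gene, was -1.13 and -1.06 with shYAP, against -0.31 and -0.27 with shTAZ (difference -0.80, SE 0.14, adjusted p = 0.231 from limma). Vegfa, the gene of the vascular growth factor, was -0.55 and -0.47 with shYAP, against 0.26 and 0.13 with shTAZ (difference -0.70, adjusted p = 0.541 from limma). The muscle isoenzyme gene Pgam2 was the main exception, at 1.78 and 1.70 with shYAP, against 0.95 and 1.01 with shTAZ (difference 0.76, adjusted p = 0.356 from limma). Of 23 respiratory chain genes, 20 lay above 0 (median 0.14), with Cox7a1, the heart and muscle form of a cytochrome oxidase subunit, at 1.22 and 1.18 with shYAP, against 0.61 and 0.75 with shTAZ (difference 0.52, adjusted p = 0.325 from limma).

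The median difference was -0.03 over 27 collagen genes and -0.03 over 30 other matrix genes, and no member of either list passed limma. Of 23 identity genes of fibroblasts, the starting cells, 12 (52.2%) had both shYAP arrays above both shTAZ arrays and 1 (4.35%) below, beside 23.9% and 20.9% of all genes. Their median was 0.08, with 0.12 without shYAP replicate 1, 0.17 without shTAZ replicate 1 and 0.04 with quantile normalization, and none passed limma. Col1a1, the main type I collagen gene, was 0.11 and 0.06 with shYAP, against 0.19 and 0.22 with shTAZ (difference -0.12, SE 0.12, adjusted p = 0.865 from limma). Thy1, a fibroblast surface marker gene, differed by 0.29 and Vim, the vimentin gene, by -0.01. Versican (Vcan, 0.87) and fibrillin-2 lay at the high end of the matrix genes, and Fmod, the fibromodulin gene, at the low end (-0.71). Cell cycle genes ran close to 0, with a median of 0.02 over 35 genes and a range of -0.46 to 0.25. Of 30 interferon-stimulated genes 21 lay below 0 (median -0.21, and -0.11 without shTAZ replicate 1). Irf7, a regulator of the interferon response, was -1.72 and -1.54 with shYAP, against -0.56 and -0.85 with shTAZ (difference -0.93, SE 0.14, adjusted p = 0.173 from limma). Il6, the interleukin 6 gene, was -0.79 and -1.06 with shYAP, against 0.03 and -0.02 with shTAZ (difference -0.93, adjusted p = 0.149 from limma). The chemokine genes Ccl9 (2.04), Ccl12 (2.01) and Ccl3 (1.59) had the highest differences of their list, none past limma. With quantile normalization these were 0.57, 0.91 and 0.32, and Ccl12 had 0.78 without shYAP replicate 1 and 3.24 without shYAP replicate 2. These chemokine genes lay below the scramble mean in every knockdown array, as the macrophage marker median did. Ccl9 was -2.499 and -3.41 with shYAP, against -5.44 and -4.55 with shTAZ. Ccl12 was -1.12 and -3.57, against -4.33 and -4.38, and Ccl3 was -2.55 and -3.32, against -4.76 and -4.28. Their scramble arrays were apart too, at 0.87 and -0.87, 1.41 and -1.41, and 1.08 and -1.08. Endothelial (median -0.04), mesothelial and epithelial (median 0.01) and neural (median 0.20, and 0.07 without shYAP replicate 2) markers held no gene past limma.

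**Figure D4:**
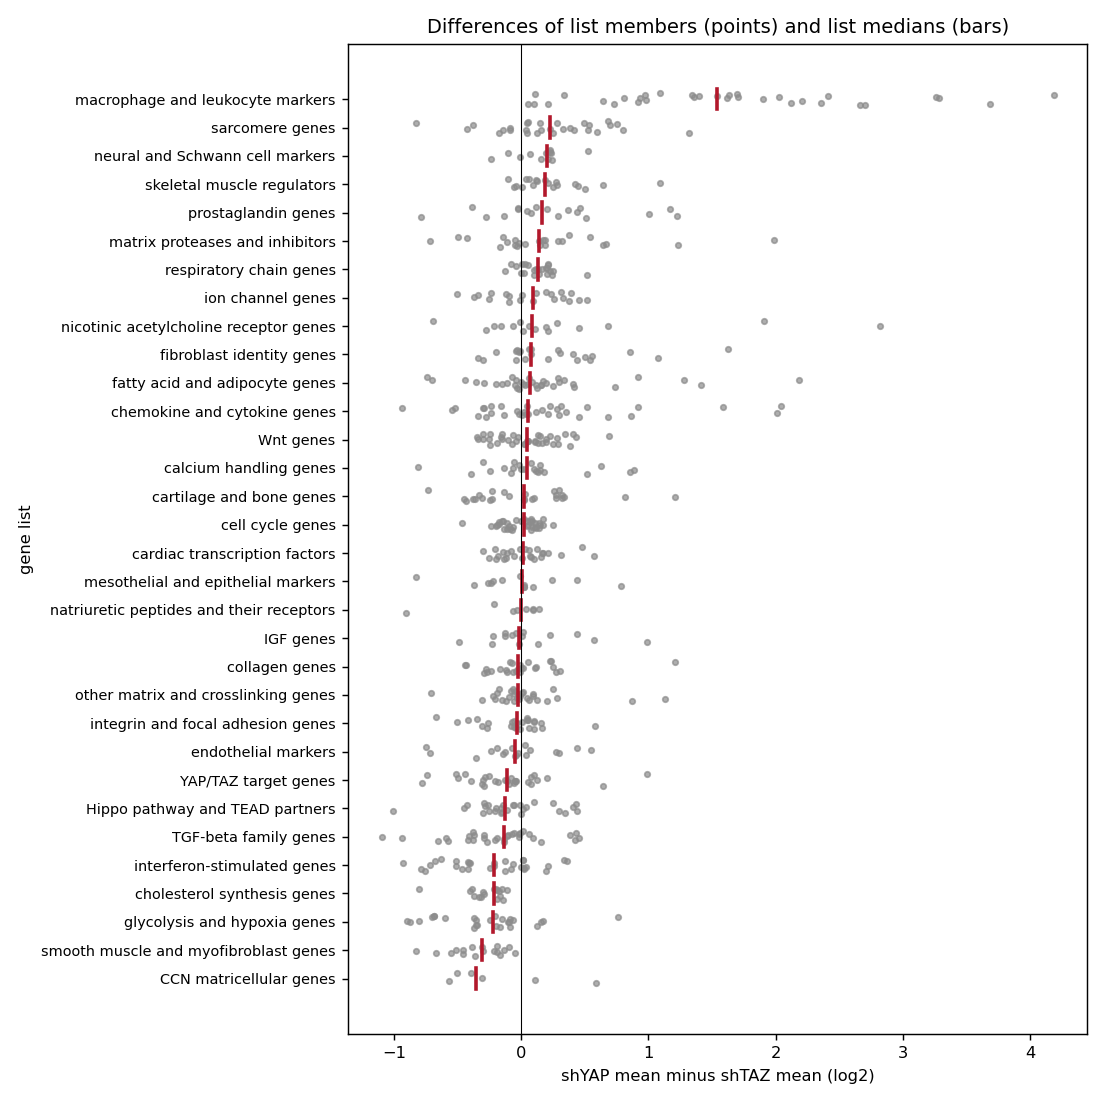
Difference between the shYAP and shTAZ means in log2 (horizontal axis) for the measured members of 32 gene lists (points, spread vertically for sight) and the median of each list (red bars). Only the macrophage list has a median above 1, and the smooth muscle and cholesterol synthesis lists have every member below 0.

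The activated mutants gave the opposite manipulation on soft hydrogel, and their contrast shares no array with the knockdown contrast. Of 22127 features, 198 (0.895%) passed limma between YAP-5SA and TAZ-4SA, 145 genes (0.743%) were at least 2-fold higher with YAP-5SA and 149 (0.763%) at least 2-fold lower. Across the 19518 genes, which are not independent replicates, the knockdown and mutant differences had a Pearson r of -0.18, with -0.21 to -0.01 over differences of single arrays and -0.093 without YAP-5SA replicate 1, and 57.4% of genes had opposite signs. None of the 7 named genes past the threshold between the knockdowns passed between the mutants. Chrna3 was 0.39 and 0.04 with YAP-5SA, against 0.06 and 0.27 with TAZ-4SA (difference 0.05, adjusted p = 0.937 from limma), and Lims2 was -0.78 and -0.37 with YAP-5SA, against -1.39 and -1.29 with TAZ-4SA (difference 0.76, adjusted p = 0.14 from limma). The reference of these mutant values is not stated in the sources used here, but it cancels in the difference if both mutants share it.

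Several gene lists had mostly opposite signs between the knockdowns and between the mutants, and others did not. Of 26 glycolysis and hypoxia genes, 24 (92.3%) had opposite signs, 21 of them below 0 in the knockdowns and above 0 in the mutants, where the list median was 0.88. Slc2a3, a glucose transporter gene, was 2.01 and 2.58 with YAP-5SA, against -0.60 and -0.27 with TAZ-4SA (difference 2.73, adjusted p = 0.0109 from limma); its knockdown difference was -0.68. Vegfa was 1.91 and 1.68 with YAP-5SA, against 0.25 and 0.05 with TAZ-4SA (difference 1.65, adjusted p = 0.0159 from limma). Past limma between the mutants, 8 of these 26 genes were higher and 1, Pgam2, lower with YAP-5SA, beside 0.895% of all features. By sign alone, 22 of the 26 lay above 0 and 4 below. Of 29 sarcomere genes, 25 (86.2%) had opposite signs, with a mutant median of -0.49. By sign alone, 24 of the 29 lay below 0 in the mutants and 5 above. Past limma were 9 on the lower side and 1, Des, on the higher side with YAP-5SA. Myh6 was -3.41 and -3.63 with YAP-5SA, against -1.07 and -1.06 with TAZ-4SA (difference -2.46, adjusted p = 0.00666 from limma). Des differed by 1.31 (adjusted p = 0.024 from limma), against -0.83 between the knockdowns. Over all genes, 57.4% had opposite signs. Of 29 YAP/TAZ targets 21 (72.4%) had opposite signs, and of 17 smooth muscle genes, all below 0 in the knockdowns, 12 (70.6%) did. Cholesterol synthesis genes, at 9 of 17 and a mutant median of 0.03, interferon-stimulated genes, at 9 of 30 with a median below 0 in both contrasts (-0.21 between the knockdowns, -0.16 between the mutants), and macrophage markers, at 4 of 33, did not share this. Fabp4 had the same sign in both. It was -0.63 and -0.49 with YAP-5SA, against -2.28 and -1.92 with TAZ-4SA (difference 1.54, adjusted p = 0.0219 from limma). Of the 26 genes at least 2-fold lower with shYAP, 17 lay above 0 in the mutants and 6 were at least 2-fold higher there. Past limma in the mutants, 5 of the 26 were higher and 1, Cfi, lower (difference -1.49, adjusted p = 0.045 from limma). Of the 86 genes at least 2-fold higher with shYAP, 27 lay below 0 in the mutants and 2 were at least 2-fold lower.

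**Figure D5:**
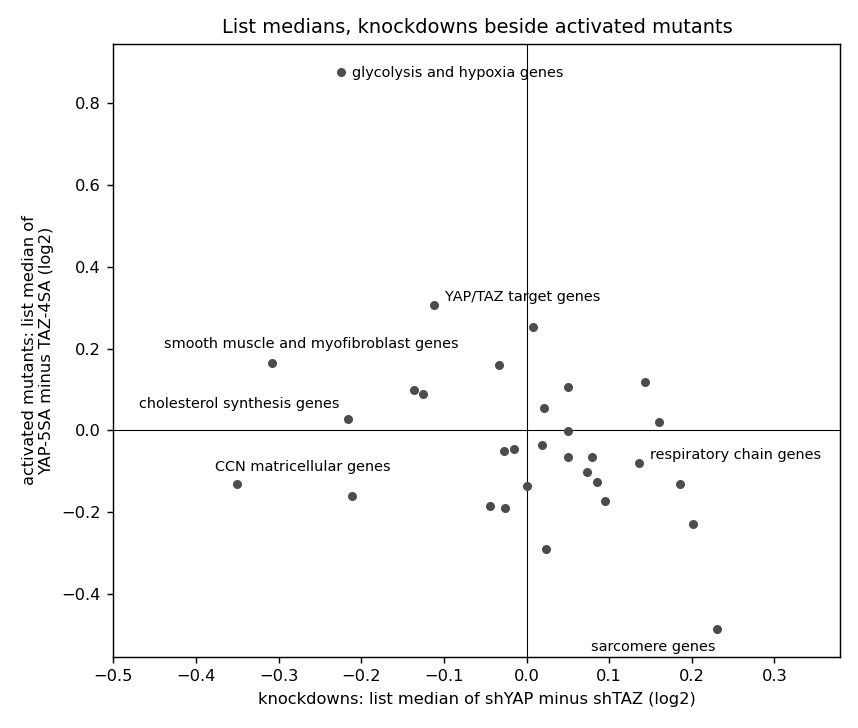
Median of each gene list for shYAP minus shTAZ (horizontal, log2) and for YAP-5SA minus TAZ-4SA (vertical, log2), with the macrophage list, at 1.54 and 0.54, left out of the frame. Glycolysis and hypoxia genes (-0.22 and 0.88) and sarcomere genes (0.23 and -0.49) lie farthest into the quadrants of opposite sign.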

How the data were processed

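RNA was hybridised to Affymetrix Clariom S Mouse arrays, and per the labels the submitters used Affymetrix Expression Console 1.4 (other steps are not given in the sources used here). The deposited values are log2 ratios; those of the shRNA arrays are relative to the scramble mean, as read from the values, since the scramble arrays average to 0. The ratios carry no signal level, so no filter on dim features could be set, and the small number of arrays limits the precision.

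Differences were tested with limma 3.58.1 in R 4.3.3 over the 6 shRNA and scramble arrays, which together give the spread, and p-values were adjusted by Benjamini-Hochberg over 22122 features. The mutants were fitted apart. The code was tested on simulated data. Symbols came from the platform annotation: 19572 features have 1 symbol and 2634 none. Gene lists were written from general knowledge; members and lists were chosen with earlier results of these data known. Named were Yap1, Wwtr1, the reprogramming factors and array or PCR genes of the article; per direction, up to 15 genes past the test, 2-fold different and of 1 sign in all array pairs, ordered by difference and filled up by smallest p; and per list up to 5 members of largest absolute difference and any past the test. Others were chosen after their values were seen. Listed genes without a single-symbol feature were not analysed here. Promoter windows are from RefSeq (GRCm38.p6). Alternatives covered the arrays fitted, scaling, replicate block, weights, prior, features tested and arrays left out.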

Additional observations from a re-analysis of the deposited data

How the results depend on the processing

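With 2 arrays per group, counts of calls depended on the fit. Beside 7 higher and 3 lower features, all 14 arrays gave 17 and 23, array weights 13 and 14, the replicate block 1 and 0 (before adjustment, 815 and 904 at p under 0.05), and quantile normalization 0 and 0. Without receptor, predicted and unnamed features 4 were higher. Leaving out 1 array gave 0 to 9 higher and 0 to 4 lower, with 0 in both directions without any one shYAP or shTAZ array, where the fit has 2 residual degrees of freedom. An alternative chosen after seeing the data, which left out features 2-fold apart between the scramble arrays, gave 17 and 18. Under the replicate block Chrna3 passed (adjusted p = 0.0281), while Mup22 (0.0626), Mup19 (0.0738) and Chrnb4, Prrg4, Lims2 and Sult5a1 (0.129 each) did not. Replicate numbers are not said to mark pairs, and the replicate differences had correlations of 0.00 (shYAP with shTAZ), 0.21 (shYAP with scramble) and -0.03 (shTAZ with scramble).

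The 86 genes 2-fold higher became 24 with quantile normalization, 28 without features 2-fold apart between the scramble arrays, 33 when all 4 array differences had to be 2-fold and 40 at a difference of 1.5; the 26 lower became 17, 26, 6 and 2. Leaving out 1 array gave 77 to 126 higher and 25 to 47 lower (47 without shYAP replicate 1, 43 without shTAZ replicate 1). Yap1, at -1.01, passed with all 14 arrays (adjusted p = 0.0126), with array weights (0.0448) and without features apart between the scramble arrays (0.0389, all limma); over its alternatives the adjusted p was 0.0126 to 0.921, and without 1 array the difference was -1.08 to -0.94. Wwtr1 passed under none, with 0.41 to 0.47 without 1 array.

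The macrophage median was 0.21 with quantile normalization and 0.95 to 2.21 without 1 array. Without 1 array the smooth muscle median was -0.37 to -0.29, the cholesterol synthesis median -0.28 to -0.22 and the sarcomere median 0.18 to 0.28. Of 32 lists 19 had a median above 0, and 14 to 21 without 1 array; quantile normalization gave 13. The correlation with the mutants was -0.24 to -0.093 without 1 mutant array. Values that changed sign were Tnnt2 (-0.016), Itgb2 (-0.10), Ccl6 (-0.35) and Car3 (-0.17) with quantile normalization, and, without 1 array, Scn3b (-1.09 to 0.079, above 0 without shYAP replicate 1), Nppc (-0.058 to 0.24, below 0 without shYAP or shTAZ replicate 2), Myh2 (-0.11 to 0.96, below 0 without shTAZ replicate 2) and Cdk1 (-0.41 to 0.026, above 0 without shTAZ replicate 1). Quantile normalization also turned the sign of the medians of the calcium handling, cardiac transcription factor, natriuretic peptide, Wnt, cartilage and bone, and mesothelial and epithelial lists, all within 0.05 of 0 in the deposited values. The cause was not tested. Of 2690 values of 181 other named genes under the alternatives, 2591 kept direction and side of the threshold, 48 came to pass and 42 ceased to. Settings that change only the spread leave a difference as it was, so much of this was fixed in advance. All 42 came from the 7 named genes past the threshold.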
